A study of Mus musculus with 15 samples.

Results

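The genes of the mitochondrial genome were taken as all genes of the liver and lung count tables whose name starts with mt-. The rule found 37 of the 54532 genes in each table, namely 13 mRNA genes, 2 rRNA genes and 22 tRNA genes. All 37 have the same position in GENCODE release M21 for the mouse build GRCm38, and the tables hold no other gene of that chromosome. The libraries came from wild type C57BL/6J mice, an inbred laboratory strain, which the methods give as male. The labels state an age of 28 weeks, but the age at purchase and the feeding times in the methods add up to more than that. The CS group received a control diet, and the PS group received the same diet with 2% phytosterols, plant sterols that resemble cholesterol. Liver RNA was sequenced from 4 CS and 5 PS mice and lung RNA from 3 CS and 3 PS mice, with 1 library per mouse and tissue, and 6 mice contributed both tissues. The diets were the question of the study, so the mitochondrial genes were compared between CS and PS within each tissue and then between the tissues of the same mice.

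The mitochondrial genome is a small circular DNA present in many copies per cell, and its genes are transcribed from both strands into long precursors. Excision of the tRNAs that stand between the other genes releases the rRNAs and mRNAs, and the mRNAs then receive short poly(A) tails. The mRNAs encode core subunits of the respiratory chain complexes I, III and IV and of ATP synthase, while all other subunits, and the polymerase and factors that act on the mitochondrial genome, are imported products of nuclear genes. Liver is rich in mitochondria, and lung is a mixture of epithelial, endothelial, stromal and blood cells.

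The total count per library lay between 14410117 and 17625179 in the liver and between 17934930 and 19396057 in the lung. The labels state that mRNA was captured with poly-T beads and that fragments of 370 to 420 bases were preferred, whereas the tRNA genes are 59 to 75 bases long, so a fragment of that size counted on a tRNA gene reaches into its neighbours. The summed level of 6 hepatocyte markers was 86830 to 122861 CPM (counts scaled to a common library size) in the livers and 6.86 to 137 in the lungs, and that of 6 alveolar type II markers was 21219 to 34460 in the lungs and 3.33 to 8.05 in the livers. Library CS 2 stood apart in the liver, where 4 RNAs that are retained in the nucleus summed to 620 CPM against 119 to 127 in the other CS livers. In the lung the same 4 RNAs, which include Malat1 and Neat1, summed to 719 to 789 CPM in the CS group and to 828, 3901 and 3836 CPM in PS 1, PS 2 and PS 3. The markers of heart muscle, 9 genes, summed to 223 to 349 CPM in the CS lungs and to 567, 46.2 and 102 CPM in the PS lungs. In bulk tissue, fewer cells of a type and less RNA per cell cannot be told apart.

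Several members have near-identical copies in the nuclear genome, and their sequences are shown because a read from such a stretch matches 2 places. Among the GENCODE transcripts, 11 pseudogenes carry at least 200 bases at 95% identity or more, and 7 of them lie side by side on the minus strand at chr1:24611535-24616197. Their outer ends match bases 6390 and 11042 of the mitochondrial genome, in the last part of mt-Co1 and within mt-Nd4. The 7 genes do not cover this whole span, since 233 bases between the copies of mt-Co2 and mt-Atp6, which hold most of mt-Atp8, and most tRNA genes of the span lie in none of them. Of the 37 members, 11 lie inside this span, 2 lie partly inside it and 24 lie outside it. The copies of mt-Co2 (Gm28661), mt-Atp6 (Gm10925), mt-Co3 (Gm28437), mt-Nd4l (Gm10222) and the copied 876 bases of mt-Nd4 (Gm28439) had 100% identity over the aligned bases. The remaining pair of copies differed from their members by 1 base each, and that base is the capital in the lines that follow, with positions counted from 1 at the first base of the gene. The copy Gm28438 carried T3C against mt-Nd3 (ENSMUSG00000064360), here at chrMT:9459-9521 on the plus strand and at chr1:24613057-24613119 on the minus strand.
mt-Nd3: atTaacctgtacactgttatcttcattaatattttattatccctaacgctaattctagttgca
Gm28438: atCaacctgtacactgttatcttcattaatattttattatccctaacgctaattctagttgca
The copy Gm29216 carried A1066T against mt-Co1 (ENSMUSG00000064351), here at chrMT:6390-6453 on the plus strand and at chr1:24616125-24616188 on the minus strand.
mt-Co1: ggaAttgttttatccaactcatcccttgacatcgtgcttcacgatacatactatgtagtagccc
Gm29216: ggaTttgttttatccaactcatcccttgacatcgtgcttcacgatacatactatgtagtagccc
The other 4 pseudogenes, Gm13339, Gm13340, Gm13341 and Gm4076, copy parts of mt-Nd2, mt-Co1, mt-Co2 and mt-Nd5 at 95.2% to 97.6% identity and drew at most 277 counts in any library.

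The share of exactly copied sequence differed sharply between genes. Of all windows of 150 bases in a gene, 532 of 535 in mt-Co2, 529 of 532 in mt-Atp6, 634 of 635 in mt-Co3, 193 of 199 in mt-Nd3 and 145 of 148 in mt-Nd4l recurred unchanged in one of the copies. In mt-Nd4 the number was 727 of 1229 and in mt-Co1 330 of 1396, while mt-Rnr1, mt-Rnr2, mt-Nd1, mt-Nd2, mt-Nd5, mt-Nd6, mt-Cytb and also mt-Atp8, which lies inside the span, had none. How reads with several matches were treated is not given in the sources used here, so the values of the copied genes are uncertain. The ratio of reads on a copy to reads on its member varied between the pairs. The count of Gm28661 was 33.1% to 95.5% of that of mt-Co2 in the livers and 43.5% to 50.7% in the lungs. For Gm10925 and mt-Atp6 the range was 39.3% to 233% in the livers and 39.9% to 123% in the lungs. It was far lower for the partly copied genes, with 0.300% to 0.538% for Gm28439 and mt-Nd4 and 0.0718% to 0.638% for Gm29216 and mt-Co1 over all libraries, and Gm28438 had 29.3% to 74.2% of the count of mt-Nd3 in the livers but 5.53% to 20.1% in the lungs. Added over the 7 copies, the counts on chromosome 1 came to no more than 1.07% of the mitochondrial counts in any library.

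The level of the 13 mRNAs per length was then set beside their place relative to the span. FPKM, the deposited values that divide the counts by gene length and library size, had means of 2510 to 12213 in the liver for the 5 mRNA genes outside the span, 5274 and 17406 for mt-Nd4 and mt-Co1 that are partly inside, and 4.59 to 356 for the 6 genes inside it. In the lung the corresponding means were 1964 to 7102, 2743 and 10959.9, and 7.45 to 186 FPKM. In every library the lowest of the 7 genes outside or partly inside the span stood above the highest of the 6 inside it, by a factor of at least 2.45 in the liver and 7.36 in the lung. The lowest of them, mt-Atp8, had 0 of 55 windows in the copies and lies between the copied mt-Co2 and mt-Atp6. The copies of these neighbours are 233 bases apart on chromosome 1, as are the 2 aligned stretches in the mitochondrial genome. Copies were sought among transcripts only, so whether chromosome 1 also holds a copy of mt-Atp8 was not tested. The part that the copies play in these differences was not tested.

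**Figure D1:**
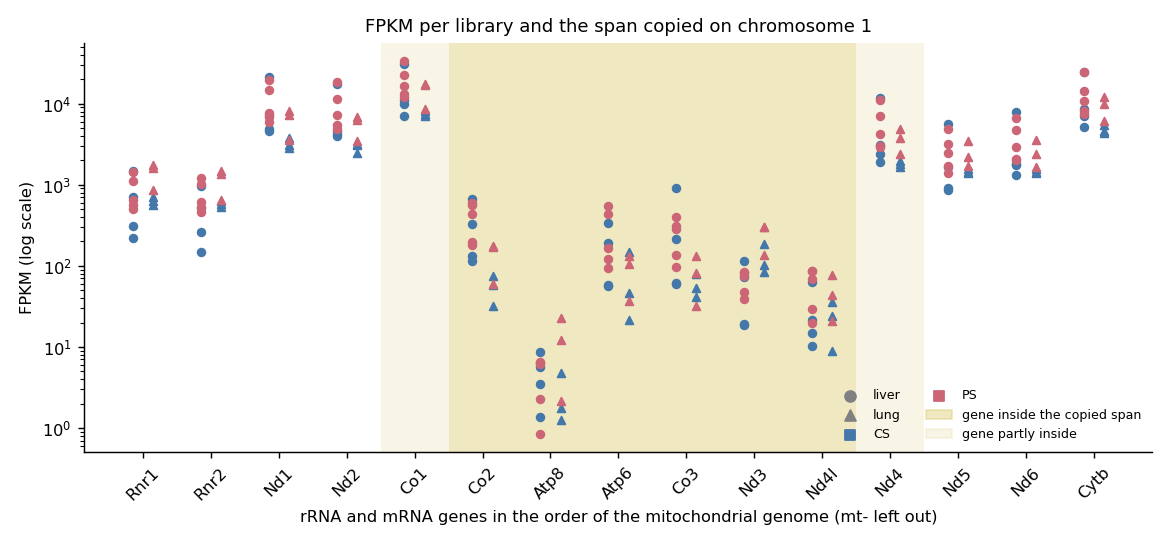
Each point is the FPKM (log axis) of a mitochondrial rRNA or mRNA gene in one library, with livers as circles and lungs as triangles, in the order of the genes along the genome, and shading marks the genes inside or partly inside the span copied on chromosome 1. The 6 fully shaded genes have mean levels of 4.59 to 356 FPKM in the liver and the unshaded mRNA genes 2510 to 12213 FPKM.

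Among the subunits of complex IV, cytochrome c oxidase, mt-Co1 had the highest FPKM of the 13 mRNAs in all 9 livers and all 6 lungs. Its FPKM was 7052, 31276, 9904 and 11188 in CS livers and 33291, 11974, 22541, 13122 and 16307 in the PS livers. Its lung values were 7429.6, 6979.95 and 8233 FPKM with the control diet and 17356, 17219 and 8542 with phytosterols, so that PS 3 stood close to the CS lungs. The FPKM of mt-Co1 exceeded that of mt-Co2 by 21.2- to 82.9-fold over the livers and 99.2- to 216-fold over the lungs, and that of mt-Co3 by 34.7- to 161-fold and 89.1- to 269-fold. The 3 genes encode the catalytic core of the same enzyme, and mt-Co2 and mt-Co3 lie inside the copied span.

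The only mRNA of complex III in this genome, mt-Cytb, which encodes cytochrome b, ranged from 5094 to 24500.4 FPKM in the livers (median 8513) and from 4306 to 12065 in the lungs (median 5789). Among the genes of complex I, which encode membrane subunits of NADH dehydrogenase, mt-Nd1 averaged 10287 ± 6445 FPKM over the livers (SD, n = 9) and 4792 ± 2315 over the lungs (SD, n = 6). The values of mt-Cytb and mt-Nd1 overlapped in the liver, where they exchanged ranks 2 and 3 between libraries, and mt-Cytb held rank 2 in all 6 lungs. Next in the liver came mt-Nd2 with 8699 ± 5826, mt-Nd4 with 5274 ± 3785, mt-Nd6 with 3484 ± 2435 and mt-Nd5 with 2510.4 ± 1704 FPKM (SD, n = 9). These 4 genes kept ranks 4 to 7 in each of the 9 livers, although their SD overlapped. In the lung mt-Nd6 and mt-Nd5, with means of 2009 ± 852 and 1964 ± 779 FPKM (SD, n = 6), exchanged ranks between libraries. The gene mt-Nd6 is the mRNA gene on the minus strand and shares 14 bases with mt-Nd5 on the other strand, and where counting ignores strand the reads of the overlap cannot be told apart.

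Within the copied span mt-Nd3 and mt-Nd4l, also of complex I, had 61.4 ± 32.0 and 44.5 ± 31.3 FPKM in the liver (SD, n = 9). In the lung mt-Nd3 stood at 186 ± 96.8 and mt-Nd4l at 35.3 ± 24.1 FPKM (SD, n = 6). The genes of ATP synthase, mt-Atp6 and mt-Atp8, averaged 223 ± 176 and 4.59 ± 2.68 FPKM over the livers, and 81.8 ± 54.3 and 7.45 ± 8.50 over the lungs. The lowest of the 13 in all 15 libraries was mt-Atp8, with 3 to 27 reads per liver and 5 to 82 per lung. It shares its last 43 bases with mt-Atp6, and these are the capitals in its end at chrMT:7897-7969 on the plus strand.
mt-Atp8: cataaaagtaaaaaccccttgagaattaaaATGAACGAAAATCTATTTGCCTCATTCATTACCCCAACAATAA
Both proteins are translated from 1 transcript, and a fragment that covers the end of mt-Atp8 lies in both genes. How fragments that touch 2 genes were counted is not given in the sources used here.

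The rRNA genes mt-Rnr1 (chrMT:70-1024) and mt-Rnr2 (chrMT:1094-2675), which encode the RNAs of the small and large mitochondrial ribosomal subunit, averaged 775 and 639 FPKM over the livers, and 1022 and 872 over the lungs. Because RNA was captured with poly-T beads, these levels, and the rRNA shares and ratio given later, hold for the captured RNA only. The FPKM of mt-Rnr1 was 311, 1484, 218 and 708 in the CS livers and 1439, 498, 1102, 571 and 644 in the PS livers. CS lungs had 706, 563 and 622 FPKM of mt-Rnr1, and PS lungs had 1767, 1609.6 and 864. All 3 PS lungs were above all 3 CS lungs, whereas the liver groups overlapped.

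The 22 tRNA genes took 0.263% to 0.500% of the mitochondrial counts, and these counts were unevenly spread. In both tissues the 5 tRNA genes with the highest mean count were mt-Tp, mt-Tc, mt-Tn, mt-Te and mt-Ty, for proline, cysteine, asparagine, glutamic acid and tyrosine, and all 5 lie on the minus strand. The 8 tRNA genes of the minus strand held 95.5% to 98.2% of the tRNA counts in the livers and 84.0% to 94.1% in the lungs, against the 14 of the plus strand. The largest was mt-Tp with a mean of 2949 reads per liver and 1094 per lung, while the highest on the plus strand were mt-Tl1 with 38.1 reads in the liver and mt-Tl2 with 89.8 in the lung. At the other end mt-Tf and mt-Td, for phenylalanine and aspartic acid, had 0 reads in all 15 libraries. By counting error alone this allows at most 0.155 to 0.208 CPM by library (3 counts). That limit does not cover reads left out when reads were assigned to genes, and mt-Td lies inside the copied span. The gene with the most reads, mt-Tp at chrMT:15356-15422 on the minus strand, and a gene without reads, mt-Tf at chrMT:1-68 on the plus strand, are of nearly equal length.
mt-Tp: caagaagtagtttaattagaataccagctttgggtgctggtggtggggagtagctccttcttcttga
mt-Tf: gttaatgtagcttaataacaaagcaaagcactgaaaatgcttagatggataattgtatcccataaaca
The strand setting of the counting is not given in the sources used here, so reads from a tRNA gene and from a transcript of the opposite strand cannot be told apart. Mean counts were under 10 for 11 of the 22 tRNA genes in the liver and 10 in the lung.

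The share of all counts on mitochondrial genes was next compared between the diets. CS livers held 3.33%, 14.4%, 4.13% and 4.45%, and PS livers held 13.3%, 4.81%, 9.79%, 5.30% and 6.50%. The PS livers lay within the range that the CS group spanned through library CS 2, and the means of 7.95% ± 3.58 (SD, n = 5, PS) and 6.58% ± 5.25 (SD, n = 4, CS) were not distinguishable (p = 0.619, two-sided exact permutation test). Without CS 2 every PS liver was above every CS liver, the difference was 3.98 percentage points and p = 0.0357 (two-sided exact permutation test). Without PS 1 the difference was 0.0185 percentage points, so this comparison turned on single libraries. Library CS 2 also had the 620 CPM of nuclear retained RNAs given above, and the PS livers had 192 to 326 CPM of them against 119 to 127 in CS 1, CS 3 and CS 4. Macrophage markers, of which 6 of 6 were lower in PS livers by the fit, summed to 226, 275, 177 and 179.8 CPM in CS livers and to 84.7, 133, 66.1, 141 and 196 CPM in PS livers. Endothelial markers, also lower for 6 of 6, summed to 53.1 to 77.3 CPM in CS livers and to 27.1, 33.5, 25.2, 46.2 and 60.8 CPM in PS livers. Of these 12 genes 0 passed an adjusted p of 0.05 by edgeR, where 0% of all genes were lower. At an unadjusted p of at most 0.05, 4 were lower, against 3.58% of all genes. Both sums were lowest in PS 1 and PS 3, the PS livers with the highest mitochondrial shares, whereas CS 2 had the highest macrophage sum. Hepatocyte markers, 4 higher and 2 lower of 6 by the fit with 0 passing, summed to 86830, 99372 and 90503 CPM in CS 1, CS 3 and CS 4. Their sums were 108517 in CS 2 and 103434 to 122861 in the PS livers. Without CS 2 these sums, like the shares, did not overlap between the diets. They were mostly of the albumin gene Alb, while Apoa1, Ttr, Serpina1c, Cyp2e1 and Fgb overlapped between the diets with or without CS 2. The part of these RNAs in the result was not tested.

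CS lungs held 3.08%, 2.94% and 3.51%, and PS lungs held 6.13%, 7.28% and 3.69%. All 3 PS lungs exceeded all 3 CS lungs, with means of 5.70% ± 1.83 and 3.18% ± 0.299 (SD, n = 3 each), a ratio of 1.79. The two-sided exact permutation test gave p = 0.1, which is the smallest value that 3 against 3 libraries can give. The 95% Wilson intervals of the shares, which cover counting error only, were at most 0.0240 percentage points wide in the lungs and 0.0351 in the livers. PS 3 was the lung closest to the CS group. It had 3836 CPM of nuclear retained RNAs, close to the 3901 CPM of PS 2 with its share of 7.28%, while PS 1 had 828 CPM and a share of 6.13%. Of the 6 alveolar type II markers, 2 were higher and 4 lower in the PS lungs by the fit, but their sum was 21219 to 22090.4 CPM in the CS lungs and 32716, 34460.4 and 22310.3 CPM in PS 1, PS 2 and PS 3, mostly through the surfactant gene Sftpc. Heart muscle markers, of which 4 were higher and 5 lower by the fit, summed to 567 CPM in PS 1 and to 46.2 CPM in PS 2. Skeletal muscle markers, lower for 4 of 4 tested, summed to 446 CPM in CS 3, to 4.69 and 10.5 CPM in the other CS lungs and to 5.31 to 9.21 CPM in the PS lungs. Fat cell markers, lower for 6 of 6 tested, summed to 85.4 to 264 CPM in the CS lungs and to 214, 25.6 and 11.4 CPM in PS 1, PS 2 and PS 3. The 6 markers of B cells and plasma cells, 3 higher and 3 lower by the fit, summed to 1231, 720 and 1302 CPM in CS 1, CS 2 and CS 3 and to 1435, 1787 and 1384 CPM in PS 1, PS 2 and PS 3. These sums, mostly of the plasma cell gene Jchain, did not overlap between the diets and had the same order over the 6 lungs as the mitochondrial shares. The part of other cell types in the share was not tested.

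**Figure D2:**
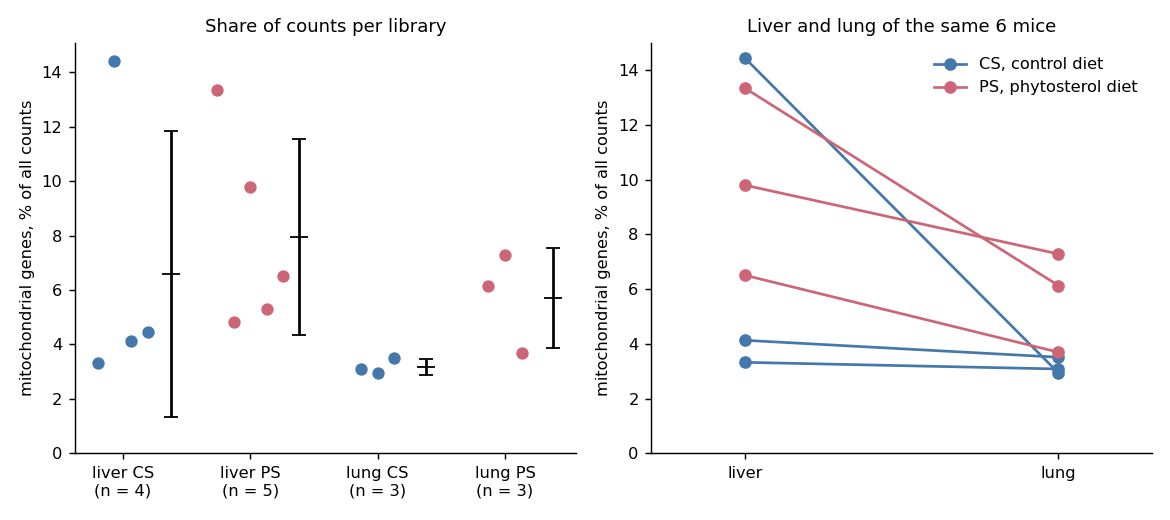
On the left, each point is the percent of a library's counts on mitochondrial genes, with the mean and SD of each group beside it, and on the right a line joins the liver and lung of each of 6 mice. The CS lungs lie between 2.94% and 3.51% and the PS lungs between 3.69% and 7.28%, while CS 2 at 14.4% stands apart from the other CS livers.

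The single genes of the lung were compared between the diets with edgeR's quasi-likelihood test on the counts, fitted over all 16717 genes that passed the filter on low counts and adjusted by the Benjamini-Hochberg method over all of them. Of the 37 members, 27 passed that filter, and the fitted level of all 27 was higher in PS lungs. Their median log2 fold change was 0.96, against 0.01 over all genes tested. Leaving out a single library turned the sign of mt-Atp6, mt-Co3, mt-Th, mt-Ts2, mt-Tl2 and mt-Te. An adjusted p under 0.05 was reached by 3 members, which rose in the PS group, against 4.8% of all genes that rose, and by 0 members that fell, against 4.43%. They were mt-Rnr1 (log2 fold change 1.16 ± 0.26 SE, adjusted p = 0.0367), mt-Tp (1.06 ± 0.26, adjusted p = 0.0417) and mt-Nd4 (1.02 ± 0.27, adjusted p = 0.0489). An unadjusted p of at most 0.05 was reached by 16 of the 27, against 15.6% of all genes, and by 0 members in the other direction, against 14.5%. Among these 16 were both rRNAs, 10 of 13 mRNAs and 4 of 12 tRNAs. In 10 of the 27 every PS lung was above every CS lung in CPM, which held for 17.3% of all genes, and in 0 of the 27 every PS lung was below, against 18.8%. These 10 were both rRNAs, mt-Nd2, mt-Co1, mt-Nd4, mt-Nd5, mt-Nd6, mt-Cytb and the tRNA genes mt-Tw and mt-Tp.

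The call of mt-Nd4 was lost with nuclear counts as library sizes (adjusted p = 0.0542, 2 members against 3.33% of all genes), and those of mt-Nd4 and mt-Tp with total counts (adjusted p = 0.0571 and 0.0521, 1 member against 2.46%), all by edgeR. The number of calls also depended on single libraries, over all genes as well as among the members. Without PS 3, which had the lowest FPKM of the PS lungs for all 15 rRNA and mRNA genes, 14 of 28 members rose at the adjusted threshold, against 5.55% of all genes in that fit. Without PS 1 the call was mt-Rnr1 alone, against 10.2% of all genes, and 0 members passed without PS 2 or any of the 3 CS lungs, fits in which 0% to 0.0117% of all genes passed upward and mt-Rnr1 had log2 fold changes of 1.06 to 1.22 and adjusted p of 0.114 to 0.134. DESeq2's Wald test called 13 members, against 9.64% of all genes, and limma on log2(FPKM + 1) called 0, against 2.65%, with 9 at an unadjusted p of at most 0.05, against 15% of all genes.

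**Figure D3:**
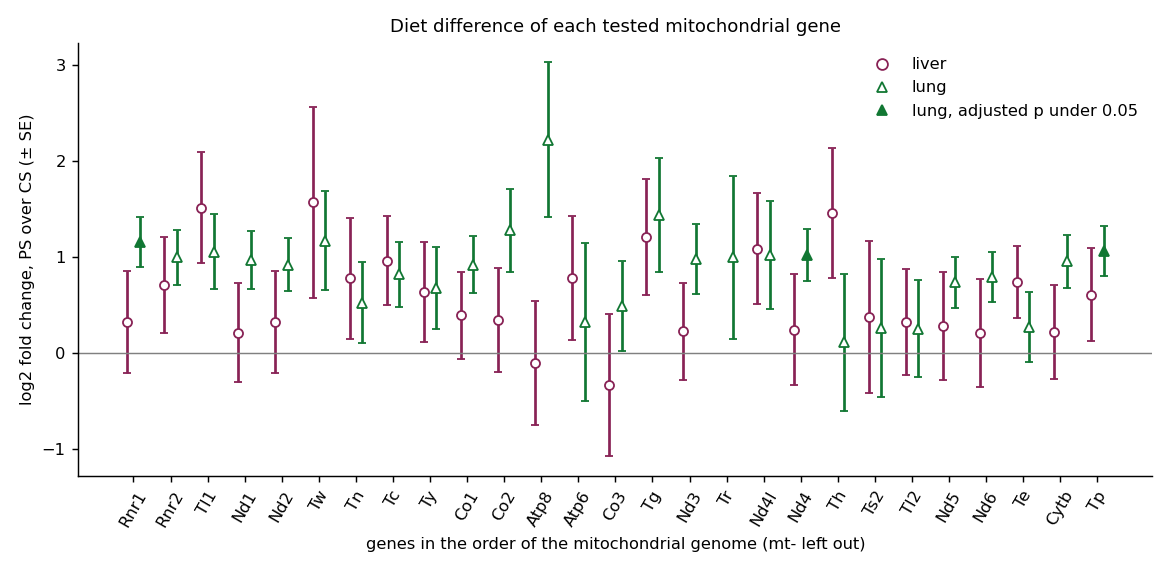
The log2 fold change of the PS over the CS group is plotted with its SE for each member that passed the filter, with circles for the liver and triangles for the lung and filled triangles for an adjusted p under 0.05. All 27 lung values lie above 0 with a median of 0.96, and the liver values spread from -0.33 to 1.57.

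Of the called mRNA, mt-Nd4, CS lungs had 1791, 1634 and 1988 FPKM and PS lungs 3812, 4866 and 2367, so the groups did not overlap. Among the mRNAs that did not pass, mt-Cytb had a log2 fold change of 0.96 ± 0.28 (adjusted p = 0.0595), mt-Nd2 of 0.92 ± 0.28 (adjusted p = 0.0646), mt-Nd1 of 0.97 ± 0.30 (adjusted p = 0.0734) and mt-Co1 of 0.92 ± 0.30 (adjusted p = 0.0798, edgeR). The FPKM of mt-Cytb was 4306, 4636 and 5481 in CS lungs and 10024, 12065 and 6098 in PS lungs, again without overlap. For mt-Rnr2 the log2 fold change was 1.00 ± 0.29 (adjusted p = 0.0601). The genes inside the copied span had wider errors, with 0.32 ± 0.82 for mt-Atp6, 0.49 ± 0.47 for mt-Co3, 1.02 ± 0.56 for mt-Nd4l and 2.22 ± 0.81 for mt-Atp8, whose lungs ranged from 1.26 to 22.7 FPKM. All 8 copies tested in the lung also had positive values without passing the adjusted threshold, with 1.19 ± 0.40 for Gm28661 (adjusted p = 0.0867) and 1.13 ± 0.42 for Gm29216 (adjusted p = 0.112).

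In the liver 26 members passed the filter among 13195 genes, and by the fit 24 of them were higher and 2 lower in PS livers. The members' median log2 fold change was 0.38, and that of all genes was -0.03. Leaving out a single library turned the sign of mt-Nd1, mt-Nd2, mt-Nd3, mt-Nd4, mt-Nd5, mt-Nd6, mt-Cytb, mt-Atp8, mt-Co3 and mt-Ts2. By edgeR's quasi-likelihood test 0 members passed the adjusted threshold, against 0.00758% of all genes upward and 0% downward. At an unadjusted p of at most 0.05 the single call was mt-Tl1 (1.52 ± 0.58, adjusted p = 0.543 by edgeR), against 3.96% of all genes, with 0 members in the other direction, against 3.58%. Without overlap between the groups in CPM, 0 members were higher and 0 lower in PS livers, against 2.1% and 1.53% of all genes. The counts of mt-Tl1 were 6, 43, 8 and 18 in CS livers and 68, 47, 63, 34 and 56 in PS livers, so the groups overlapped through CS 2. For the gene with the most counts, mt-Co1, the log2 fold change was 0.39 ± 0.45 and the adjusted p 0.925. For mt-Rnr2 it was 0.71 ± 0.50 and for mt-Rnr1 0.32 ± 0.53. Without library CS 2, 21 of 26 members were higher at an unadjusted p of at most 0.05, against 7.78% of all genes in that fit, and the median log2 fold change was 1.28, while 0 of 26 passed the adjusted threshold (lowest adjusted p = 0.0563, edgeR). DESeq2's Wald test called 0 members after adjustment, against 0.834% of all genes upward, and 3 before, against 4.72%.

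The diet difference was also compared between the tissues in 1 edgeR fit over all 15 libraries. Of 28 members tested, 0 had a diet difference in the lung that departed from that in the liver at an adjusted p under 0.05 or at an unadjusted p of at most 0.05, against 0.00565% and 5.54% of all genes upward and 0.017% and 5.4% downward. The median of the lung minus the liver difference was 0.20 on the log2 scale, and it was -0.24 with mouse as a block in the 6 mice sequenced in both tissues and -0.53 without mouse CS02. The higher values in the PS lungs are therefore not shown to differ from the values in the liver.

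Relative amounts within the mitochondrial counts do not depend on how libraries are scaled to each other. The mRNAs made up 96.5% to 98.6% of the mitochondrial counts in the livers and 93.7% to 95.3% in the lungs. The rRNA share was 2.11% ± 0.830 in CS livers and 2.50% ± 0.229 in PS livers (SD, n = 4 and 5), and 4.92% ± 0.541 in CS lungs and 5.34% ± 0.574 in PS lungs (SD, n = 3 each). The tRNA share was 0.345% ± 0.0536 in CS livers and 0.458% ± 0.0464 in PS livers (exact permutation p = 0.0317, adjusted over 6 class comparisons p = 0.190). CS lungs had a tRNA share of 0.332% ± 0.0766 and PS lungs one of 0.307% ± 0.0106. None of the 6 comparisons passed after adjustment by two-sided exact permutation tests. The smallest p that they allow was 0.0159 in the liver and 0.1 in the lung.

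The composition of the 13 mRNAs, as a share of their summed counts, was compared in the same way. In the CS livers mt-Co1 took 36.2% ± 2.41 of the mRNA counts, mt-Cytb 19.8% ± 0.973, mt-Nd1 13.8% ± 1.49 and mt-Nd2 11.9% ± 1.44 (SD, n = 4). In the PS livers the same genes took 38.1% ± 2.45, 18.4% ± 1.01, 12.8% ± 1.44 and 11.9% ± 0.947 (SD, n = 5). In the CS lungs they took 39.7% ± 0.473, 18.7% ± 1.302, 10.5% ± 0.485 and 10.3% ± 0.924, and in the PS lungs 39.5% ± 2.76, 19.3% ± 0.968, 10.7% ± 0.649 and 10.3% ± 0.237 (SD, n = 3). Of the 26 exact permutation tests, 0 had an unadjusted p of at most 0.05 and the lowest was 0.0952 for mt-Nd4l in the liver. The lowest adjusted p of these exact tests was 0.963. The 6 genes inside the copied span together held 0.396% to 1.52% of the mitochondrial counts in any library.

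The ratio of mt-Rnr2 to mt-Rnr1 counts, which compares the captured RNAs of the large and small ribosomal subunit, was looked at after the data had been seen. It was 1.38, 1.09, 1.13 and 1.21 in CS livers and 1.41, 1.52, 1.54, 1.56 and 1.59 in PS livers, so every PS liver was above every CS liver. The means were 1.20 ± 0.129 (SD, n = 4) and 1.52 ± 0.0683 (SD, n = 5), and the two-sided exact permutation test gave p = 0.0159, the smallest it allows. In the lung the order was the other way, with 1.48, 1.57 and 1.53 in CS lungs above 1.39, 1.41 and 1.25 in PS lungs (p = 0.1, exact permutation test, the smallest it allows). The difference between the tissues was not tested.

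**Figure D4:**
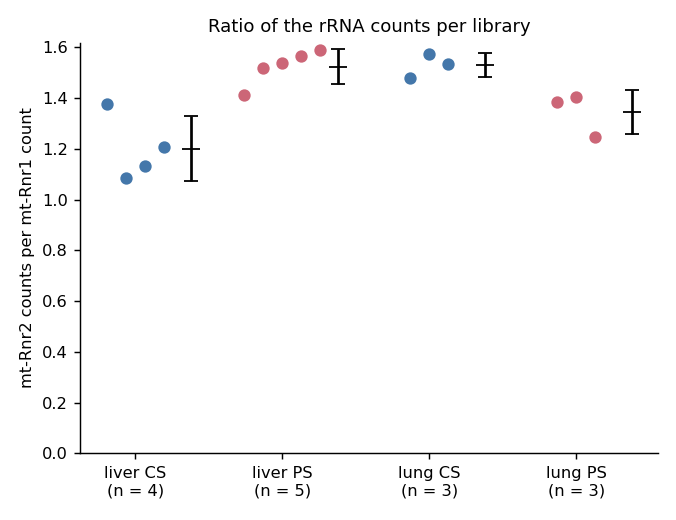
Each point is the ratio of mt-Rnr2 to mt-Rnr1 counts in one library, with the mean and SD of each group beside it. PS livers lie between 1.41 and 1.59 and CS livers between 1.09 and 1.38, whereas PS lungs lie below CS lungs.

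Lung and liver were compared within the 6 mice that gave both. The mitochondrial share of counts was lower in the lung of all 6 mice, with 4.44% ± 1.81 against 8.58% ± 4.69 in their livers (SD, n = 6; p = 0.03125, two-sided exact sign permutation test, the smallest value that 6 mice can give). The within-mouse difference ranged from -0.24 percentage points in mouse CS01 to -11.5 in mouse CS02, whose liver is library CS 2. Without that mouse the mean difference was -2.68 percentage points (exact sign permutation p = 0.0625, the smallest that 5 mice can give). With TMM scaling and mouse as a block, edgeR found an adjusted p under 0.05 for 16 of 28 members with a lower level in lung, against 28.8% of all genes, and for 0 with a higher level, against 41.6%. Before adjustment, a p of at most 0.05 was reached by 17 lower members, against 29.6% of all genes, and by 0 higher ones, against 42.9%. By class, 11 of 13 mRNAs, 0 of 2 rRNAs and 5 of 13 tRNAs were lower at an adjusted p under 0.05, and mt-Rnr1 was the member that passed only before adjustment.

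The lower mRNAs included mt-Co2 (log2 fold change -3.03 ± 0.41, adjusted p = 4.13e-05), mt-Nd1 (-2.45 ± 0.42, adjusted p = 0.000299), mt-Cytb (-2.15 ± 0.43, adjusted p = 0.000851) and mt-Co1 (-2.04 ± 0.46, adjusted p = 0.00191). Among the tRNA genes mt-Tp had -2.92 ± 0.29 (adjusted p = 3.53e-06) and mt-Te -2.70 ± 0.30 (adjusted p = 9.79e-06). The rRNAs mt-Rnr1 and mt-Rnr2 had smaller differences of -0.83 ± 0.35 (adjusted p = 0.0506) and -0.76 ± 0.35 (adjusted p = 0.0728). The mRNAs that did not pass were mt-Nd3 (0.37 ± 0.37, adjusted p = 0.386) and mt-Atp8 (-0.95 ± 0.58, adjusted p = 0.165), both inside the copied span. Of the mRNAs that passed, mt-Co2, mt-Atp6, mt-Co3 and mt-Nd4l also lie inside that span, so their values are uncertain in the same way. The direction of some genes depended on the scale. With TMM scaling the median log2 fold change of all genes was 0.33 and that of the members -1.69, and with libraries scaled to the summed counts of nuclear genes the medians were 1.56 and -0.46. The members' median was 2.02 below that of all genes with either scaling, which follows because a change of scaling shifts all genes by nearly the same amount. By the nuclear scaling 11 of 28 members were lower at an adjusted p under 0.05, against 13.4% of all genes, and 2 (mt-Nd3 and mt-Tl2) were higher, against 69.7%. Both rRNAs turned to positive values of 0.41 and 0.47.

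**Figure D5:**
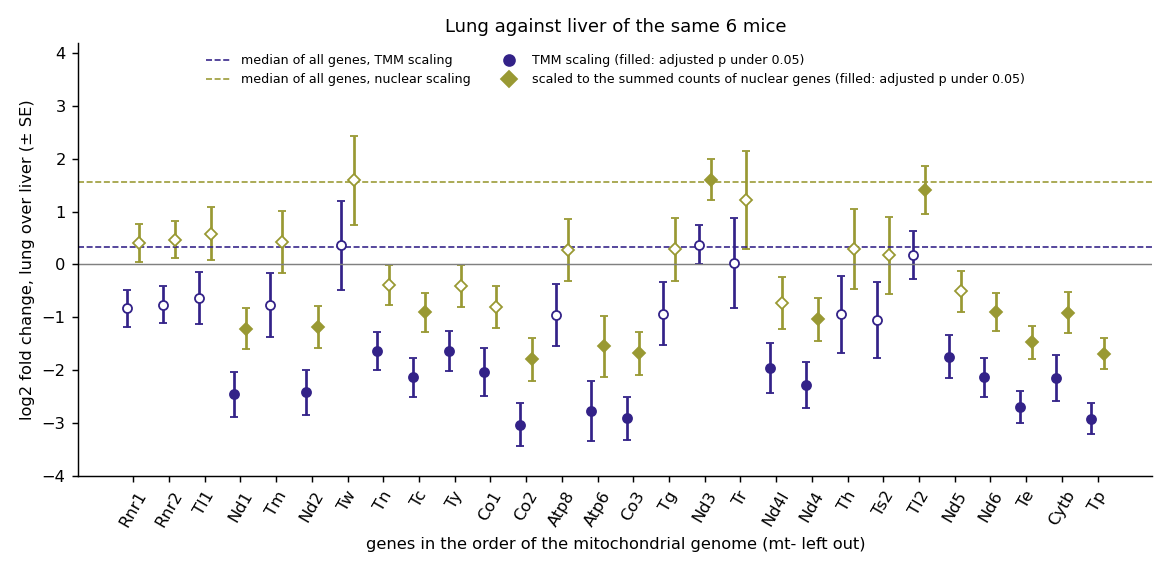
The log2 fold change of lung over liver is plotted with its SE for 28 members, with circles for TMM scaling and diamonds for scaling to nuclear counts, filled for an adjusted p under 0.05, and dashed lines give the median of all genes for each scaling. By TMM scaling 16 members are filled and below 0, and the median of all genes moves from 0.33 to 1.56 between the scalings.

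Free of that scaling, the rRNA share of mitochondrial counts was 5.13% ± 0.551 in the lungs and 2.10% ± 0.546 in the livers of the 6 mice, and it was higher in the lung of all 6 (two-sided exact sign permutation p = 0.03125, adjusted over 6 such comparisons p = 0.0625). Within the mRNAs, mt-Nd5 took 8.63% ± 1.10 of the counts in the lung against 6.45% ± 0.838 in the liver, and mt-Nd3 took 0.151% ± 0.0456 against 0.0263% ± 0.0106. Both were higher in the lung of 6 of 6 mice, as was mt-Atp8, while mt-Nd1, mt-Nd2, mt-Co2 and mt-Co3 were lower in 6 of 6. Each of these 7 had the smallest p that the exact sign permutation allows, 0.03125, and an adjusted p of 0.058 over the 13 genes, so none passed. These 2 families of comparisons were added after the data had been seen.

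The nuclear genes whose products join the mitochondrial ones were counted from lists of subunits and factors. In the lung 29 of 37 nuclear subunits of complex I were higher in PS lungs by the fit, their median log2 fold change was 0.35 against 0.01 over all genes, and 3 rose at an adjusted p under 0.05 by edgeR, where 4.8% of all genes rose and 4.43% fell. These were Ndufa11 (0.74 ± 0.18, adjusted p = 0.0436), Ndufb7 (0.68 ± 0.18, adjusted p = 0.0468) and Ndufs7 (0.61 ± 0.13, adjusted p = 0.0323). The medians of the nuclear subunits of complexes III, IV and V in the lung were 0.01, 0.19 and 0.04 over 9, 10 and 15 genes. Of the 34 genes of these 3 lists 1 passed, and it fell, namely Atp5b, the catalytic beta subunit of ATP synthase (-0.93 ± 0.23, adjusted p = 0.0426). In the liver 0 genes of the 4 lists passed at either threshold, and the medians lay between -0.03 and 0.06. Of all liver genes 0.00758% rose and 0% fell at an adjusted p under 0.05, and 3.96% and 3.58% at an unadjusted p of at most 0.05.

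Of the factors that act on the mitochondrial genome, Mterf1a and Mterf3, of the mitochondrial termination factor family, rose in the PS lungs (0.92 ± 0.24 and 0.57 ± 0.15, adjusted p = 0.0455 and 0.0446 by edgeR). Ssbp1, the single-stranded DNA binding protein of mitochondrial replication, rose by 0.85 ± 0.16 (adjusted p = 0.0252), and Fastk, of a family that acts on mitochondrial RNA, by 1.01 ± 0.19 (adjusted p = 0.0245). They were 2 of 8 transcription, 1 of 9 replication and 1 of 27 RNA processing genes, and 0 genes of these 3 lists fell, beside the 4.8% of all genes that rose and the 4.43% that fell. Of the 8 nuclear regulators of mitochondrial biogenesis tested, 4 were higher and 4 lower by the fit, with a median of -0.02, and 0 passed after adjustment. The summed level of all 9 genes of the list, which follows its most abundant genes, was lower in all PS lungs (406 to 465 CPM) than in all CS lungs (501 to 562 CPM). Of all genes tested in the lung, 18.8% were lower without overlap. Polrmt, the mitochondrial RNA polymerase, had 0.61 ± 0.23 in the lung (adjusted p = 0.116) and -0.24 ± 0.20 in the liver (adjusted p = 0.856). Tfam, which packages mitochondrial DNA and starts its transcription, had -0.32 ± 0.15 (adjusted p = 0.185) and -0.03 ± 0.19 (adjusted p = 0.993), and Tfb2m, the other initiation factor, 0.12 ± 0.14 (adjusted p = 0.620) and -0.17 ± 0.16 (adjusted p = 0.884). Lrpprc and Slirp, which form a complex that stabilizes mitochondrial mRNAs, had -0.15 ± 0.14 (adjusted p = 0.505) and -0.11 ± 0.53 (adjusted p = 0.910) in the lung. Ppargc1a, a coactivator of mitochondrial biogenesis, had 0.79 ± 0.27 in the liver (adjusted p = 0.463) and -0.69 ± 0.29 in the lung (adjusted p = 0.148), and the test of that difference gave an adjusted p of 0.263.

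Between the tissues the nuclear subunits were lower in the lung, with 37 of 37 for complex I, 9 of 9 for complex III, 10 of 10 for complex IV and 15 of 15 for complex V at an adjusted p under 0.05 by edgeR with TMM scaling, against 28.8% of all genes. Their median log2 fold changes were -1.96, -2.63, -2.34 and -2.30, beside -2.15 for the 13 mitochondrial mRNAs and 0.33 over all genes. With nuclear counts as library sizes, where 13.4% of all genes were lower and 69.7% higher at that threshold and their median was 1.56, the genes lower in the lung were 27 of 37, 8 of 9, 10 of 10 and 12 of 15, and 1 gene of complex I, Ndufc2, was higher (0.46 ± 0.20, adjusted p = 0.0487). The counts of the other lists turned with this scaling. By TMM the list of mitochondrial transcription had 5 of 8 genes lower and 0 higher, RNA processing 20 of 27 lower and 1 higher, replication 4 of 9 lower and 1 higher, and the regulators of biogenesis 3 of 9 lower and 2 higher, beside 28.8% of all genes lower and 41.6% higher. With nuclear library sizes the same lists had 0, 5, 2 and 1 genes lower and 4, 7, 6 and 6 higher. Lrpprc was lower in the lung by both scalings (-2.92 ± 0.17 and -1.69 ± 0.15), and Slirp had -0.38 ± 0.56 by TMM (adjusted p = 0.558) and 0.83 ± 0.55 with nuclear library sizes (adjusted p = 0.180).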

How the data were processed

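The submitters' processing notes name HISAT2 2.0.5, featureCounts 1.5.0-p3, DESeq2 1.20.0 and the build mm10 (GRCm38). The authors deposited unnormalized counts per gene, and FPKM that divide them by gene length and a factor per library. Strand setting, treatment of multi-mapping reads and gene model are not given in the sources used here.

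Members, lists and comparisons were chosen with earlier results of these data known. Groups follow the labels, and 0 columns were left unmapped. Counts were fitted with edgeR 4.0.16 (TMM, its default filter, robust quasi-likelihood test, R 4.3.3) over all genes, adjusted by the Benjamini-Hochberg method. For shares, two-sided exact permutation tests were used. The fits were tested on simulated data. Copies were sought with blastn 2.17.0+ among GENCODE M21 transcripts instead of the nuclear genome, which was not used here, at 95% identity over 200 bases. The rRNA and mRNA genes were described singly, tRNA genes with a mean count of at least 10 in a tissue were named, as were mt-Tf and mt-Td, chosen after their values were seen, and nuclear genes if they hold a copy, pass a diet test or are central factors of mitochondrial expression. Alternatives were DESeq2 1.42.0, its size factors, nuclear or total counts as library sizes, other filters, limma 3.58.1 on log2(FPKM + 1) or log2(FPKM + 0.1), blocks, and leaving out each library.

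Mouse pairs the tissues by the titles, although the deviations of liver and lung of a mouse correlated by only -0.035 to 0.093. Replicate numbers mark no shared litter or day. P-values measure the spread between mice of 1 experiment, and intervals and floors cover counting error only.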

Additional observations from a re-analysis of the deposited data

Results flagged for a closer look

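Library CS 2 of the liver held 14.4% of its counts on mitochondrial genes, against 3.33% to 4.45% in the other CS livers. Its gap to the nearest CS liver was 0.899 of the whole range of the group, above the 95% critical value of Dixon's test. Liver PS 2 passed the same test for mt-Co2, which took 0.810% of its mRNA counts against 0.208% to 0.309% in the other PS livers, a gap of 0.832 of the range. In total 38 groups of values were tested in this way, and chance marks about 1 group in 20.

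The ratio of mt-Rnr2 to mt-Rnr1 counts separated the diets in opposite directions in the tissues. PS livers exceeded CS livers by 0.324 on average, and the difference between PS and CS lungs was -0.183. It was 1 of 18 quantities compared between the tissues in this way, and the difference between the tissues was not tested.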

How the results depend on the processing

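The smallest p of 3 against 3 lungs is 0.1, so no lung share can pass a threshold of 0.05, and 6 mice cannot go below 0.03125. The share of counts kept its direction and its side of the threshold with nuclear counts as the base, from the 13 mRNA genes alone, from FPKM, with the copies added and from the 7 rRNA and mRNA genes outside the copied span, the last 2 chosen after seeing the data. Depth limits mt-Atp8 and those tRNA genes that had few reads.

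Leaving out 1 library or mouse at a time gave these ranges. The PS minus CS share of the liver was 0.0185 to 3.98 percentage points, the former without PS 1 and the latter without CS 2. The lung minus liver share was -4.93 to -2.68, with p = 0.0625 by exact sign permutation, the smallest that 5 mice allow. The PS minus CS tRNA share of the lung was -0.0592 to 0.0165, positive without CS 1. For the rRNA share of mitochondrial counts it was 0.0492 to 0.720 percentage points in the liver and 0.0954 to 0.712 in the lung. Members higher at an unadjusted p of at most 0.05 were 0 to 21 in the liver, where 2.76% to 7.78% of all genes were called in those fits, and 7 to 18 in the lung, where 10.6% to 18.6% were. Those higher at an adjusted p under 0.05 in the lung were 0 to 14, against 0% to 10.2% of all genes. The composition of liver mRNAs had 0 to 1 genes at an unadjusted p of at most 0.05, the difference of the diet effect 0 to 1 in each direction, against 3.25% to 6.96% of all genes, and the lung against the liver 0 to 1 higher, against 39.9% to 43.9%.
In the liver these fits turned the sign of the log2 fold change of mt-Nd1 (-0.11 to 0.99), mt-Nd2 (-0.075 to 1.16), mt-Nd3 (-0.068 to 0.84), mt-Nd4 (-0.15 to 1.21), mt-Nd5 (-0.041 to 1.27), mt-Nd6 (-0.13 to 1.20), mt-Cytb (-0.14 to 0.94), mt-Atp8 (-0.42 to 0.35), mt-Co3 (-0.68 to 1.16) and mt-Ts2 (-0.00036 to 1.78). In the lung they turned mt-Atp6 (-0.14 to 1.49), mt-Co3 (-0.052 to 0.87), mt-Th (-0.33 to 0.78), mt-Ts2 (-0.093 to 1.36), mt-Tl2 (-0.35 to 0.69) and mt-Te (-0.022 to 0.54). Between the tissues they turned mt-Tw (-0.22 to 0.96), mt-Tr (-0.61 to 0.69) and mt-Tl2 (-0.17 to 0.46). None of these genes was called by the adjusted test in that comparison.

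Members higher in PS livers at an unadjusted p of at most 0.05 were 1 as reported (3.96% of all genes), 3 by DESeq2's Wald test (4.72%), 6 of 34 without a filter (3.38%), 0 of 20 with at least 10 counts in every library (4.09%), 2 with total counts as library sizes (3.25%), and 3 by limma with either pseudocount (4.47% and 4.55%). Members higher in PS lungs at an adjusted p under 0.05 were 3 as reported (4.8% of all genes), 13 by DESeq2's Wald test (9.64%), 9 of 34 without a filter (4.25%), 2 with nuclear counts as library sizes (3.33%), 1 with total counts (2.46%) and 0 by limma with either pseudocount (2.65% and 2.88%). Before adjustment limma called 9 (15%) where edgeR called 16 (15.6%). Without a filter, the diet effect differed between the tissues at an unadjusted p of at most 0.05 in 2 of 35 members upward and 1 downward, against 3.89% and 3.76% of all genes. In the liver mt-Co3 turned to 0.40 by limma with either pseudocount. Nuclear counts as library sizes gave 2 members higher and 11 lower in the lung than in the liver at an unadjusted p of at most 0.05, against 70.4% and 13.7% of all genes, and 2 higher after adjustment, against 69.7%. They turned mt-Rnr1 to 0.41, mt-Rnr2 to 0.47, mt-Tl1 to 0.59, mt-Atp8 to 0.27, mt-Tg to 0.29, mt-Th to 0.30 and mt-Ts2 to 0.18, where the median of all genes moved from 0.33 to 1.56. The causes of the other changes were not tested.

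The replicate numbers did not pair the samples, with correlations of the deviations of -0.36 to -0.03 in the liver and -0.01 to 0.10 in the lung, where 1 of 3 pairs matched best with its own number. With the replicate block, 0 members were higher in PS livers at an unadjusted p of at most 0.05 (1.97% of all genes), 3 in PS lungs after adjustment (4.89%), and the liver log2 fold changes of mt-Atp8 and mt-Co3 turned to 0.13 and 0.58. Without the block for mouse, 18 members were lower in the lung than in the liver at an adjusted p under 0.05 (30.8% of all genes), and mt-Tw turned to -0.089.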
